A study of Caenorhabditis elegans with 2 samples.

Results

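The genes described here encode the 10 subunits of the MEC and NuRD chromatin complexes of Caenorhabditis elegans, 10 of 19973 protein-coding genes on the nuclear chromosomes, taken by their Ensembl names. They are mep-1, let-418, chd-3, hda-1, lin-53, rba-1, lin-40, egl-27, dcp-66 and mbd-2, and all 10 names were found once in the annotation. Because MEP-1 is the protein that was immunoprecipitated, the question is where MEP-1 was called at the genes for its own complex, MEC, and for NuRD, which shares subunits with MEC. Whole L1 larvae, the first larval stage, of strain OP102 were used for chromatin immunoprecipitation and sequencing, with males and females pooled and their age given as unknown. The worms carry the unc-119 allele tm4063 and the insertion wgIs102, which the labels describe as targeting mep-1 and as giving an eGFP-tagged protein. There were 2 biological replicates of this 1 group, with no untagged or untreated group, so no comparison between conditions is made. Whole animals were used, so a call cannot be given to a cell type. How much of the mep-1 gene the insertion carries is not stated in the labels, and a peak at mep-1 from the insertion and one from the normal locus cannot be told apart.

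NuRD joins a nucleosome-remodelling motor to a histone deacetylase, and is best known for holding genes in a repressed state. In the worm the motor is LET-418 or its paralogue CHD-3, the deacetylase is HDA-1, LIN-53 and RBA-1 bind histones, LIN-40 and EGL-27 are scaffold proteins of the MTA family, DCP-66 is a linker subunit and MBD-2 belongs to the methyl-CpG-binding-domain family. MEC is a smaller complex in which the zinc finger protein MEP-1 joins LET-418 and HDA-1, and it is known for keeping germline genes off in somatic cells.

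The data are lists of called peaks on build ce11 (WBcel235), each with a summit (the base of highest signal) and a signal value given by the authors. The authors' optimal list, named by them as thresholded on the irreproducible discovery rate, holds 4904 peaks, 18 of them with no overlapping call in replicate 1. It was found to be the 4904 strongest peaks of a relaxed list of 30000 made from both replicates pooled. Relaxed lists of replicate 1 and replicate 2 hold 30000 and 29149 peaks. A relaxed list reaches far into weak signal by design, and its lower ranks are not taken here as binding. Signal scales differ between lists, so values are compared within a list and ranks (1 is the strongest) are given beside them. No read counts are in the lists, so the depth of the libraries is unknown, and the spread between the 2 replicates is the only error available.

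The DNA under the summits at the members' genes was searched for 5 words only, and none of these was at every member with a peak. Below are 101 bases centred on the optimal summit, read 5' to 3' on the strand of the gene, for 4 members with 1 optimal peak each and for 2 of the 7 optimal peaks of egl-27. Capitals mark matches, on either strand, to these words of 6 bases, which earlier work on this same peak list found at its summits. The words are GACGCA and ACGCAG, which can overlap each other by 5 bases, and CGTCTC, beside the GC-rich words ACGCGC and GAGCGC. The sequences are from the RefSeq assembly of WBcel235.
mep-1, chrIV:11524357-11524457, plus strand: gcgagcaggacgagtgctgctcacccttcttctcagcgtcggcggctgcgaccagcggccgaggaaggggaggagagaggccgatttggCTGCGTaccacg
lin-40, chrV:3704076-3704176, plus strand: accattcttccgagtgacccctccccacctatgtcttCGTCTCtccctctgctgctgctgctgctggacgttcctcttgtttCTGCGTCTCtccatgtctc
let-418, chrV:5826371-5826471, plus strand: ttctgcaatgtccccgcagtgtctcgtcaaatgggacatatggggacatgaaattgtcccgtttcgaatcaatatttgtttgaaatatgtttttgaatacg
chd-3, chrX:12852977-12853077, minus strand: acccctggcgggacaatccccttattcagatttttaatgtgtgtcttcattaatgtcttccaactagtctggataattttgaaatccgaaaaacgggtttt
egl-27 upstream, chrII:6834195-6834295, plus strand: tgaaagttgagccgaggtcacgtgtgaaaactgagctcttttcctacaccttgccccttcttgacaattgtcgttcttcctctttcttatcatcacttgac
egl-27 intron, chrII:6839142-6839242, plus strand: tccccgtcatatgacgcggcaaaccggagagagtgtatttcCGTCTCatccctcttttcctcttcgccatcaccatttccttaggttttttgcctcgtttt

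The lin-40 window held CGTCTC at 2 places and, 32 bases past the summit, an overlapping ACGCAG and GACGCA in reverse complement. The mep-1 window held ACGCAG alone, 39 bases past the summit, and the intronic egl-27 window held CGTCTC starting 9 bases before it. No word was found in the windows of let-418 and chd-3 or in the upstream window of egl-27. Of the single-peak members not shown, lin-53, the strongest, had no word, and dcp-66 had ACGCAG and GAGCGC. Of the 13 optimal summits at members, 6 had at least 1 word within 50 bp, at 4 of the 7 members with an optimal summit (mep-1, lin-40, egl-27 and dcp-66). Over all 4904 optimal summits 40.5% had one, and over 29304 windows of the same length centred 200 bp upstream of annotated 5' ends 10.7% did. The words were taken from these same summits, so the gap is a description only. Those promoter windows were also poorer in GC, at a mean of 34.6% ± 8.44 (SD) against 44.6% at the summits. Taken singly, GACGCA was at 15.8% of all optimal summits and 3.3% of those promoter windows, ACGCAG at 16.3% and 3.15%, CGTCTC at 18% and 3.93%, ACGCGC at 10.2% and 2.38%, and GAGCGC at 10.2% and 2.13%. The mep-1 window was GC-rich, at 67.3%, and the lin-40 window had 56.4%, against a mean of 44.6% ± 7.61 (SD over the 4904 optimal summits). The other 4 windows shown ranged from 38.6% to 48.5%.

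A promoter peak, meaning an optimal summit at most 1000 bp before or 200 bp after an annotated 5' end of the gene, was found at 7 of the 10 members, beside 17.5% of all 19973 genes. The 7 were mep-1, both remodelling motors (let-418 and chd-3), the histone-binding subunit gene lin-53, both scaffold genes (lin-40 and egl-27) and the linker gene dcp-66. They include mep-1, where a peak from the insertion cannot be told apart. No optimal peak lay in the window of the deacetylase gene hda-1, of rba-1 or of mbd-2. The count carries no test, since the genes were taken up with results on these peaks already known. In the 4904 strongest peaks of replicate 1 alone the count was 6 of 10 (17.4% of all genes), and in those of replicate 2 alone it was 7 of 10 (18.0% of all genes). The same 6 members, all but let-418 of the 7, were called at that depth in both replicates, as were 15% of all genes. In the relaxed lists the count was 9 of 10 in the pooled list, against 42.3% of all genes, 8 of 10 in replicate 1, against 43.3%, and 7 of 10 in replicate 2, against 45.2%.

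The 7 members' strongest optimal promoter peaks had a median rank of 1718 (from 101 to 3888) and a median signal of 107 (from 56.3 to 381). Over all 3491 genes with a promoter peak the median rank was 1744 and the median signal 106. Of the 7 members 5 lay in the higher-signal 50% of the optimal list (71.4%), and of all genes with a promoter peak 64.9% did. The median rank of the members with a peak thus lay close to that of all genes with one, and lin-53 stood highest among them. The middle member of the 7 was mep-1, which had replicate ranks of 2541 and 614. Its peak cannot be told apart from one at the insertion.

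**Figure D1:**
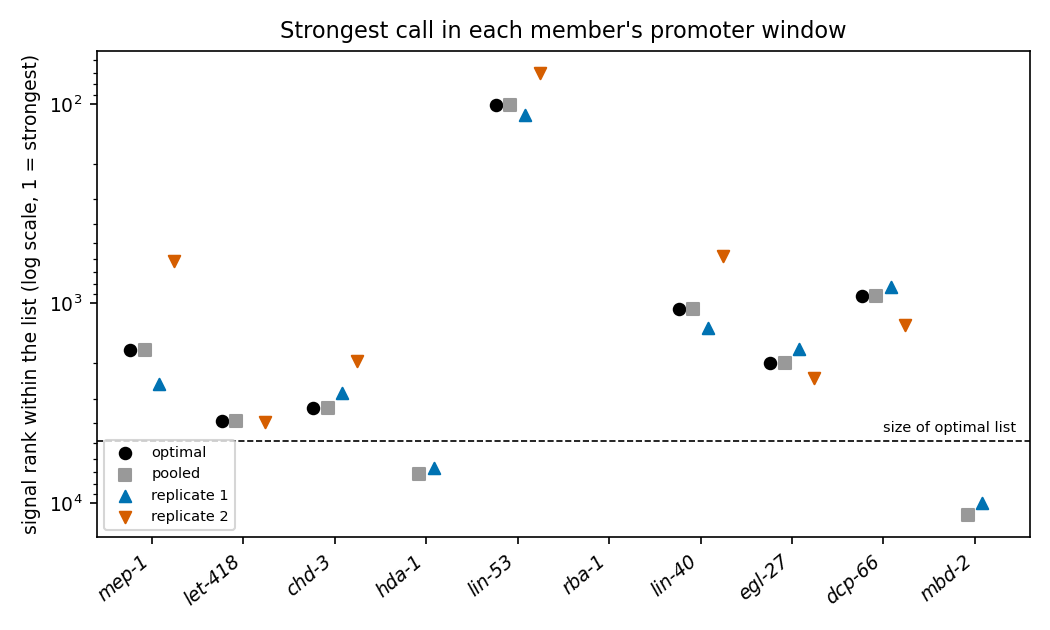
Rank of the strongest call in each member's promoter window, on a log axis with 1 at the top, in the optimal, pooled, replicate 1 and replicate 2 lists; the dashed line marks rank 4904, the size of the optimal list. lin-53 lies near rank 100 in every list, rba-1 has no point, and hda-1 and mbd-2 have points only in the pooled and replicate 1 lists, below the line. For egl-27 the strongest call of replicate 2 is at another site than those of the other lists.

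**Figure D2:**
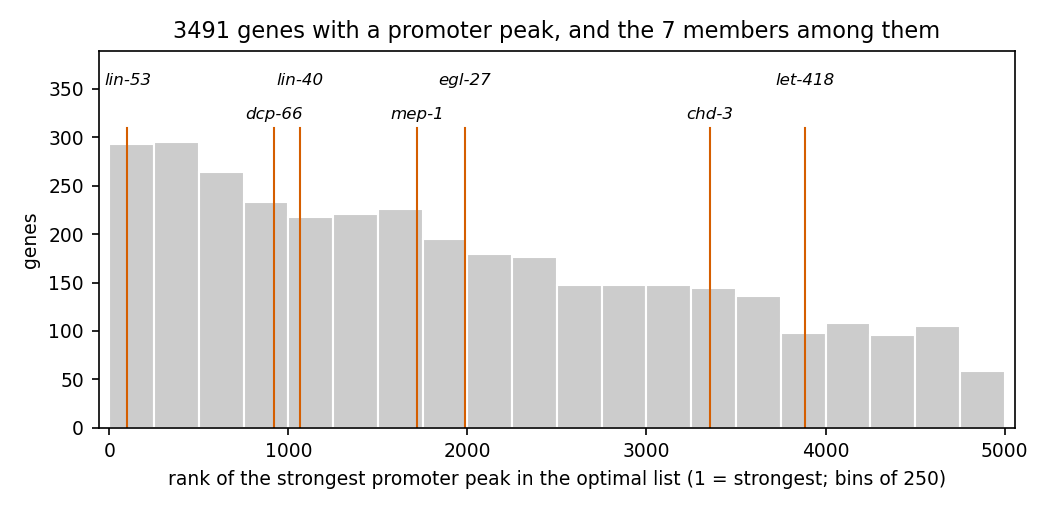
Histogram of the rank of the strongest promoter peak of each of the 3491 genes that have one in the optimal list (bins of 250 ranks), with vertical lines at the 7 members. The members run from rank 101 (lin-53) to rank 3888 (let-418).

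At mep-1 itself (WBGene00003218, chrIV:11524642-11527954, plus strand), which encodes the tagged zinc finger protein, the optimal peak lay at chrIV:11524347-11524505 with a signal of 107 and rank 1718. Its summit was 235 bp upstream of the only annotated 5' end, and 50.5% of the genes with a promoter peak had theirs at this rank or weaker. In replicate 1 the overlapping call had a signal of 55.9 and rank 2541, and in replicate 2 a signal of 61.3 and rank 614. The replicates therefore placed it differently, by a ratio of ranks of 4.14, and 2.1% of the 4861 optimal peaks matched in both replicates had a ratio as large (median 1.42). The summits differed as well, at 330 bp upstream in replicate 1 and 229 bp in replicate 2, a shift of 101 bp against a median of 22 bp over the same peaks. No other protein-coding 5' end was nearer, and the summit lay inside 2 overlapping ncRNA genes on opposite strands, M04B2.11 and M04B2.13. The 5' ends of these were 116 and 155 bp from the summit, nearer than that of mep-1. A weak call in a coding exon of mep-1, 1794 bp from its 5' end and 1616 bp upstream of the nearer 5' end of M04B2.2, had rank 21668 in the pooled list and 11438 in replicate 2, with none in replicate 1.

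Both remodelling motor genes had weak promoter peaks, and at neither did the replicates place a call at the same point. At let-418 (WBGene00002637, chrV:5826833-5832831, plus strand) the optimal peak at chrV:5826246-5826595 had a signal of 56.3 and rank 3888, with the summit 412 bp upstream. Only 11.9% of genes with a promoter peak had theirs at this rank or weaker. Replicate 2 held an overlapping call of signal 18.8 and rank 3916 with its summit 434 bp upstream, and 2 more in the window, 214 bp upstream (rank 10410) and 20 bp downstream (rank 18788). Replicate 1 held no call in the window at all, and its nearest was 3579 bp upstream, at rank 21975. Absence from replicate 1 was rare among optimal promoter peaks, at 13 of 2837. The let-418 peak therefore rests on replicate 2 and on the pooled reads, while no other gene's 5' end was nearer to it.

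The paralogue chd-3 (WBGene00000482, chrX:12846439-12852601, minus strand) had its optimal peak at chrX:12852852-12853201, with a signal of 63.8 and rank 3355, and the summit 426 bp upstream. Replicate 1 gave a signal of 51.6 and rank 2822, and replicate 2 a signal of 32.3 and rank 1949. By rank these overlapping calls were close, with a ratio of 1.45, which may compare 2 sites, since replicate 2 had no other call in the window. Their summits lay 381 and 620 bp upstream. This shift of 239 bp was matched or passed by 1.07% of the optimal peaks found in both replicates. A second pooled call, 627 bp upstream and at rank 6170, lay within 7 bp of the replicate 2 summit and was not in the optimal list.

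**Figure D3:**
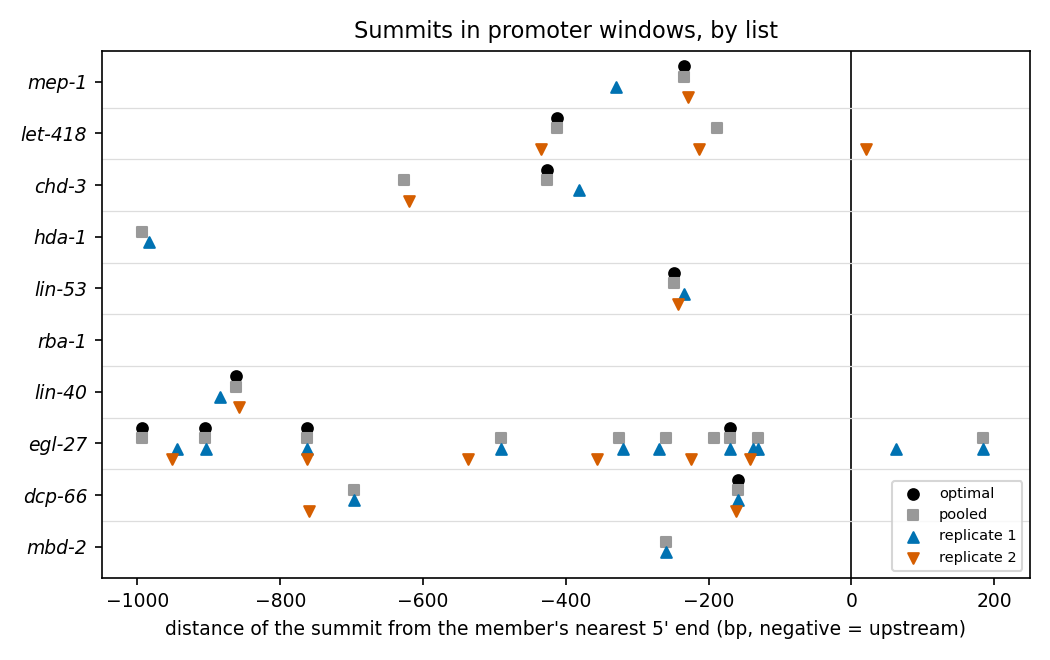
Distance of every summit in a member's promoter window from that member's nearest 5' end, in bp with upstream negative, by list. The calls of all lists fall close together at lin-53, at lin-40 and at 159 bp upstream of dcp-66, are spread at chd-3 and let-418, and are many at egl-27, which has 14 annotated 5' ends; let-418 has no replicate 1 point and rba-1 has no point at all.

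The deacetylase gene hda-1 (WBGene00001834, chrV:14525389-14527411, plus strand), whose product is shared by MEC and NuRD, had no optimal peak in its window or body. A pooled call at chrV:14524220-14524569 had a signal of 32.0 and rank 7177, and its summit lay 994 bp upstream of hda-1, 6 bp inside the window. The same summit was 266 bp upstream of ril-1, which is transcribed away from hda-1 and whose 5' end was nearer, and it lay inside the ncRNA gene C53A5.18, 105 bp from its 5' end. Replicate 1 had this call at rank 6701 (signal 25.1), and replicate 2 had none in the window, its nearest call being 2450 bp downstream of the 5' end, past the gene, at rank 24028. The nearest optimal summit to hda-1 was 14452 bp away, inside R02D5.9. Inside hda-1 a single call, in a coding exon, appeared in the pooled list at rank 25734.

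The histone-binding subunit genes lin-53 and rba-1 lie side by side on the same strand, 88 bp apart, and only lin-53 had a promoter peak. The lin-53 peak (WBGene00003036, chrI:9618196-9619760, minus strand) at chrI:9619858-9620129 had a signal of 381 and rank 101 and was the strongest at any member, with 96.6% of genes with a promoter peak at this rank or weaker. It ranked 114 in replicate 1 (signal 254) and 70 in replicate 2 (signal 127), with summits only 8 bp apart. The summit was 248 bp upstream of lin-53, but 219 bp upstream of nra-2, a nicalin-like protein gene that runs the other way, with 466 bp between the 5' ends of the genes. This peak therefore lay in the windows of 2 genes and cannot be given to 1 of them. Among the 7 members with a peak it was the only one shared in this way, and of all 2837 optimal promoter peaks 848 were.

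Downstream, rba-1 (WBGene00004312, chrI:9616516-9618107, minus strand) was the only member with no call in its window or body in any of the 4 lists. The lin-53 summit was 1901 bp upstream of the rba-1 5' end, so a window of 2000 bp would take it in. On the other side the nearest optimal summit lay 1691 bp downstream of the rba-1 5' end, past the end of the gene and 83 bp upstream of K07A1.10. That peak was near the foot of the optimal list, at rank 4783 with a signal of 46.3, and ranked 4067 in replicate 1 and 13814 in replicate 2.

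**Figure D4:**
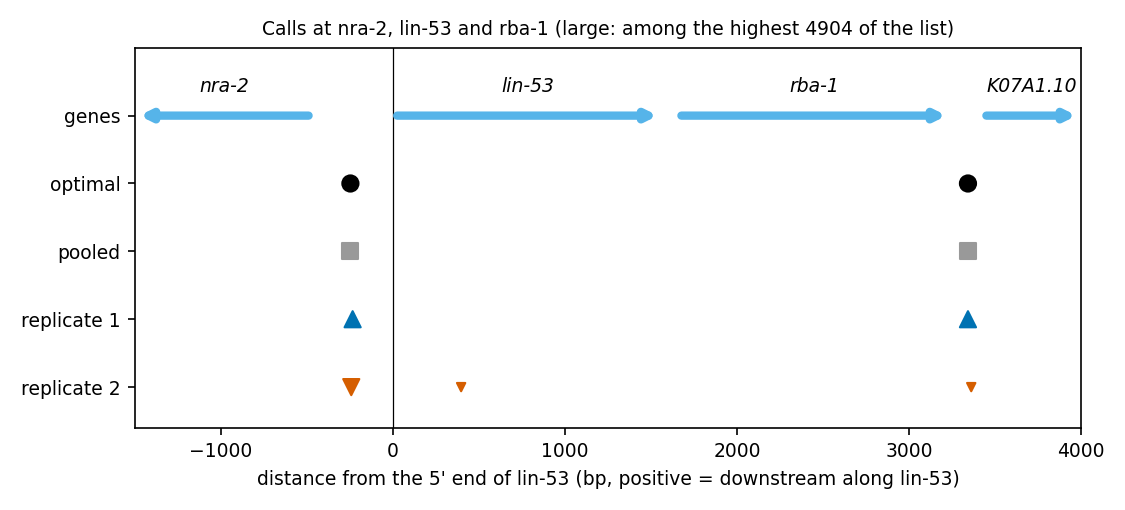
Calls around lin-53, rba-1, nra-2 and K07A1.10 in the 4 lists, by distance from the lin-53 5' end along the direction of lin-53; arrows are genes in their direction of transcription, and large symbols are calls among the 4904 strongest of their list. One strong call stands between nra-2 and lin-53 in every list, no call lies inside rba-1, and a weaker one precedes K07A1.10.

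Among the scaffold genes, lin-40 had 1 peak far upstream, found in both replicates, and egl-27 had many across the gene. The lin-40 peak (WBGene00003025, chrV:3704988-3712796, plus strand) lay at chrV:3704006-3704161, with a signal of 145 and rank 1065. It ranked 1325 in replicate 1 (signal 87.2) and 580 in replicate 2 (signal 62.9), and the replicate summits were 27 bp apart, at 885 and 858 bp upstream. With its optimal summit 862 bp upstream of the outermost of 3 annotated 5' ends, it was the farthest from a 5' end among the strongest promoter peaks of the 7 members, and it drops out with a window of 500 bp. No other annotated gene lay within 1000 bp of it.

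The other scaffold gene, egl-27 (WBGene00001194, chrII:6835008-6847908, plus strand), is 12.9 kb long and has 14 annotated 5' ends spread along the gene, a number that 9 other protein-coding genes reach or pass. It held 7 optimal summits in its windows or body, 1 upstream of the gene and 6 inside it, where no transcript has an exon. These 6 are called intronic here, but each also lies before the 5' ends of transcripts that start farther in. Only 9 of all 19973 genes, egl-27 included, had 7 or more, all among the 998 genes of at least 10 kb, where the median was 0. The upstream peak at chrII:6834070-6834419 had a signal of 97.2 and rank 1985, its summit 763 bp before the outermost 5' end. No other protein-coding 5' end was nearer, but the summit lay inside the ncRNA gene C04A2.12, 81 bp from its 5' end, and the 5' ends of the ncRNA genes C04A2.13, C04A2.10 and C04A2.14 were also nearer than that of egl-27, at 245, 455 and 712 bp. Replicate 1 ranked it 1698 (signal 75.1) and replicate 2 ranked it 4818 (signal 15.6), with summits 1 bp apart.

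Inside egl-27 the strongest optimal peak lay 703 bp into the gene, at chrII:6835536-6835885, with a signal of 104 and rank 1806, above the upstream peak. It ranked 1529 in replicate 1 (signal 79.7) and 3525 in replicate 2 (signal 20.6). The next, 9447 bp into the gene at chrII:6844280-6844629, had a signal of 91.2 and rank 2181 and was ranked nearly alike in both replicates, at 2224 and 2365. Its summit preceded the next internal 5' end by 905 bp. The other 4 lay 1304, 3346, 4184 and 6305 bp into the gene, at ranks 3358, 4885, 3714 and 3695, and the last of them was 170 bp upstream of an internal 5' end. Replicate summits of the 7 peaks differed by 1 to 59 bp, and 6 of them were among the 4904 strongest calls of replicate 1 and 5 among those of replicate 2. The pooled list held 16 calls here, 12 of them intronic, 2 in coding exons and 2 upstream of the gene.

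**Figure D5:**
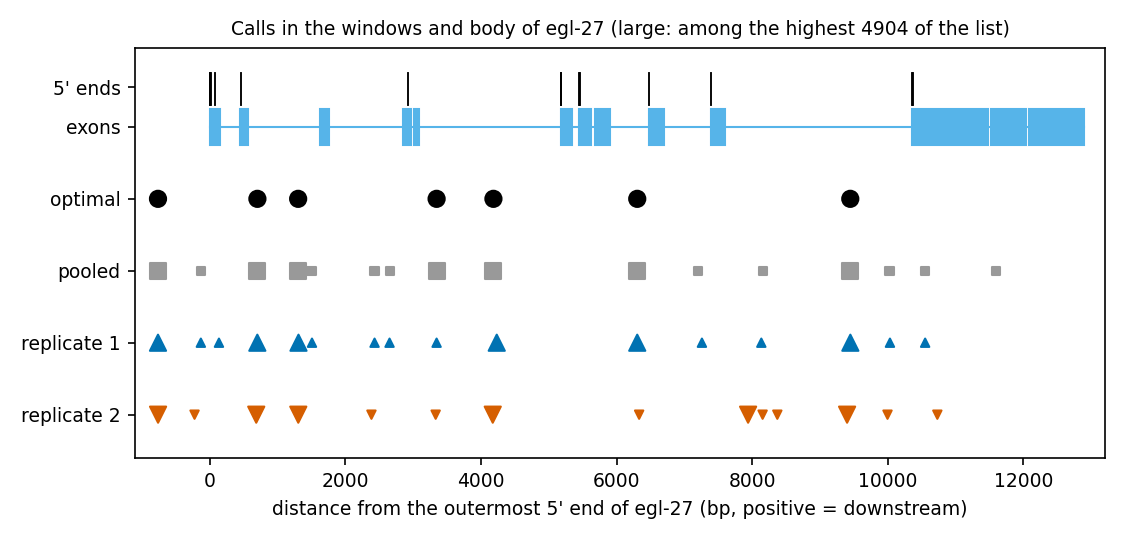
Calls in the promoter windows and body of egl-27 in the 4 lists, by distance from its outermost 5' end in bp; boxes are the 13 merged exon blocks of all transcripts, ticks the 14 annotated 5' ends, and large symbols calls among the 4904 strongest of their list. The 7 optimal calls stand 1 before the gene and 6 between exon blocks, and each has a call near it in both replicates.

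Gene bodies outside the windows held optimal summits at egl-27 alone, with 3 there, so 1 of 10 members was called in this way beside 3.35% of all genes. In the pooled list 4 of 10 members had such a call (28.1% of all genes), in replicate 1 2 of 10 (28.9%) and in replicate 2 6 of 10 (30.5%). At the other 9 members these were 13 calls over the 3 relaxed lists, none ranked higher than 11438, with 8 in coding exons and 5 in introns. The bodies of mep-1, let-418, lin-53 and lin-40 each held such calls in replicate 2 and none in replicate 1.

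The linker gene dcp-66 (WBGene00000938, chrI:7536104-7542159, minus strand) had the peak closest to a 5' end. It lay at chrI:7542213-7542418, with a signal of 159.6 and rank 920, and its summit was 159 bp upstream. Replicate 1 ranked it 827 (signal 117) and replicate 2 ranked it 1277 (signal 42.9), with summits 2 bp apart, and dcp-66 was the only gene within 1000 bp. A weaker call 697 bp upstream stood at rank 11673 in the pooled list and 10564 in replicate 1, and replicate 2 had one 759 bp upstream at rank 20993.

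The short gene mbd-2 (WBGene00023409, chrI:6064088-6065298, plus strand) lies within the span of pigo-1, which is on the other strand. Its window held 1 weak call in the pooled list, 259 bp upstream at chrI:6063654-6064003, with a signal of 21.9 and rank 11508, and replicate 1 placed it at the same summit at rank 10035. Replicate 2 had no call in the window, and its nearest lay 1183 bp upstream at rank 22160. The nearest optimal summit was 2813 bp upstream of mbd-2 and 322 bp upstream of ari-1.1.

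The strongest promoter summit lay before the 5' end at all 7 members with a peak, from 159 bp at dcp-66 to 862 bp at lin-40, with a median of -412 bp. Over all 3491 genes with a promoter peak the median was -226 bp and 94.3% lay upstream, in a window that reaches farther upstream than downstream. Of the paralogous pair lin-53 and rba-1, lin-53 had rank 101, at a peak shared with nra-2, and rba-1 had no call. The ranks were 1065 at lin-40 and 1985 at egl-27, and 3355 at chd-3 and 3888 at let-418. Between replicates the ranks of the lin-40 and egl-27 peaks themselves differed by ratios of 2.28 and 2.84. No call in replicate 1 matched the let-418 peak, so the pairs are not compared further.

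Other genes of deacetylase and remodelling complexes also often had promoter peaks, at 12 of 18 (66.7%, beside 17.5% of all genes), with a median rank of 1108.5. The strongest were in the windows of nurf-1, a subunit of the NURF remodelling complex (signal 343, rank 129, 270 bp upstream), and of spr-1, a CoREST-type corepressor (signal 207, rank 506). The spr-1 summit was at the very edge of its window, 1000 bp upstream, and nearer to snap-1. Next came athp-1, of the SIN-3 deacetylase complex (signal 199.9, rank 559, 170 bp upstream). The deacetylase genes hda-2 and hda-3, like hda-1, had no promoter peak. Genes for proteins known to act with MEP-1 outside these complexes had one at 3 of 10, led by the RNA helicase gene mog-4 (signal 194, rank 605). The SUMO gene smo-1 (signal 159.8, rank 916) and the SUMO-conjugating enzyme gene ubc-9 (signal 83.3, rank 2429) were the others. The germline repressor gene pie-1 and the SUMO ligase gene gei-17 had none.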

How the data were processed

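Peak lists of chromatin immunoprecipitation with sequencing against eGFP-tagged MEP-1 were used. The labels give a fragment size of 150 to 350 bp. The authors' signal value per peak and the deposited −log10 q value are as their caller gave them, and only the signal was used. The deposited file lists show that a control entered the calling, and control reads were not analysed here. Which aligner and caller were run, and with what reproducibility threshold, is not given in the sources used here. In the relaxed lists at least 94.5% of summits were at the middle of a peak of set width.

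Gene models were those of Ensembl release 115 (WBcel235), with every 5' end of a protein-coding transcript. A summit counted for each gene whose window held it. A replicate call was matched to an optimal peak by an overlap of at least 1 bp, taking the strongest. Distances are to a member's nearest 5' end, and inside egl-27 from its outermost one. Peaks called on ce10 were not used, since coordinates were not converted. The window assignment was checked on 200 planted summits. No test was made, as there is 1 group, and nothing says more of the replicates than that they are biological ones.

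The members, the further lists and the words were chosen with earlier results of these data known. All members are named, with the gene of the nearest protein-coding 5' end where it is another and any ncRNA gene around the member's strongest promoter summit, and in each further list up to 3 genes with the strongest peak and the first 2 without one. Other windows, 5' ends, overlap rules, thresholds, lists and RefSeq gene spans were tried as alternatives. Python 3.11.15, numpy 2.4.6, pandas 2.3.3 and matplotlib 3.10.9 were used.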

Additional observations from a re-analysis of the deposited data

How the results depend on the processing

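The count of members with a promoter peak, 7 of 10, ran from 5 with the higher-signal 50% of the optimal list to 9 with the whole pooled list. It was 6 with a window of 500 bp upstream (without lin-40) and 8 with 2000 bp (with rba-1, through the lin-53 peak). With 500 bp the egl-27 summit 763 bp upstream also dropped out, and egl-27 counted only through the summit 170 bp before an internal 5' end. The count was 6 when a summit counted only for the nearest 5' end (without lin-53). With either replicate left out it was 6 to 7, let-418 being the member lost. It stayed at 7 with outermost 5' ends, with any overlap and with RefSeq gene spans. Under these alternatives from 11.4% to 42.3% of all genes were called. The median rank of the strongest promoter peaks, 1718, was 1511.5 by the overlapping calls of replicate 1 and 1277 by those of replicate 2, and the median distance of -412 bp was -355.5 bp by the replicate 1 summits. Both replicate 1 values leave out let-418. No median over all genes stands beside the replicate ranks, so they do not show the members ranking higher or lower than other genes. The 3 gene body summits, all at egl-27, became 6 when those in its own windows were included, and also 6 with outermost 5' ends only, an alternative chosen after the data were seen. No paired analysis was possible because there is 1 group. The unknown depth limits what a missing call shows.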

Other observations

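Calls near the members were counted within 10 kb to either side of the outermost 5' end. At egl-27 there were 11 optimal and 22 pooled summits, the most of any member, and at dcp-66 there were 4 and 16. The egl-27 optimal count includes the 7 summits of its own windows and body. At mep-1 there were 3 optimal and 11 pooled summits, and at hda-1 there were 0 and 9. The remaining members had from 1 (let-418) to 4 (rba-1) optimal summits and from 4 (chd-3) to 9 (let-418) pooled ones. Over all protein-coding genes the medians were 1 and 5.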
